A study of Mus musculus with 2 samples.

Results

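Ptprc and Ptprcap, 2 of the 22686 genes listed in either library, were followed across the T cell states of mouse spleen. They were chosen by name, as the gene targeted in the knockout and the gene of its partner protein, and both were listed in each library. Ptprc encodes CD45, a transmembrane tyrosine phosphatase of nearly all blood cells. In T cells CD45 removes the inhibitory phosphate from the tail of the Src family kinases Lck and Fyn, which start signalling from the T cell receptor, and it can also act on their activating phosphate. Ptprcap encodes a small transmembrane protein of lymphocytes that binds CD45 and Lck.

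Each genotype was represented by 1 library of single spleen cells from mice 8 to 9 weeks old, captured with the BD Rhapsody system after a sort for CD3 and CD5. The first library came from LatY136F CD45-KO mice, which carry the LatY136F mutation and a knockout of CD45. The other came from LatY136F mice, so the LAT mutation, which removes the docking site for phospholipase C gamma and is known to cause a T helper 2-type lymphoproliferation, was shared by all cells. Neither the targeted exons of Ptprc nor the number of mice in each library is given in the sources used here, and no wild-type library was used here. The CD45-KO library held 12845 cells and 29268453 molecules counted by unique molecular identifiers (UMIs), and the LatY136F library 13775 cells and 35300371 UMIs. After filtering, 12834 and 13747 cells remained, with medians of 1992 and 2155 UMIs per cell. Since a genotype was sequenced as 1 library, the spread between mice is unknown and differences are given without p-values. Intervals are exact, at the 95% level, and cover the error of counting only.

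Cells were assigned to states by the transcripts they held. A T cell had at least 1 UMI of 9 T cell genes and fewer than 3 detected genes of the B cell list and of the myeloid list, which gave 12727 T cells in the CD45-KO library and 13712 in the LatY136F library. Cd3e was detected in 70.2% of T cells of the CD45-KO library and 78.0% of those of the LatY136F library, and Cd5 in 70.6% and 67.8%. T cells that passed 1 gate took its name: at least 4 of 20 cycling genes, 4 of 10 genes of follicular helper T cells (Tfh), 5 of 15 interferon-induced genes, 4 of 9 genes of naive T cells, or 2 Gzmb UMIs. The gates left 118 cycling, 251 Tfh-like, 61 interferon-high, 1430 naive-like and 88 Gzmb-positive cells in the CD45-KO library. They left 621, 176, 104, 616 and 701 such cells in the LatY136F library. Cells that passed several gates (152 in the CD45-KO library and 273 in the LatY136F library) were kept apart, and the 10627 and 11221 remaining ones are called other T cells. Each state is a range of a score rather than a type. The naive-like range had the softest edge: 1212 CD45-KO and 652 LatY136F T cells sat at its minimum of 4 genes, and 3276 and 2533 were 1 gene short.

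Ptprc (ENSMUSG00000026395.16) lies on GRCm38 chr1:138062861-138175708, on the minus strand. Its upstream window in RefSeq (GRCm38.p6, chr1:138175256-138175555, minus strand) is 1 of 2 listed for the gene and is shown because it holds an annotated start of the transcript whose level is compared here. It covers 250 bases before that start and 50 after it. Both listed windows lie inside the gene span given above, which begins further upstream. Capitals mark AGGAAGT and its reverse complement ACTTCCT, a form of the GGAA core that Ets family factors bind.
Ptprc promoter: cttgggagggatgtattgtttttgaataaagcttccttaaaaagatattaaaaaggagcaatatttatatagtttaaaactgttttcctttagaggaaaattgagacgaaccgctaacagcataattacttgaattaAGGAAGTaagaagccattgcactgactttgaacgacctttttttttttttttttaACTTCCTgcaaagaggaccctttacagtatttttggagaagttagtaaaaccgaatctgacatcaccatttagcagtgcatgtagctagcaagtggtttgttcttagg
The window held 1 copy of AGGAAGT on each strand, no TGTGGT (the core bound by Runx factors) on either strand, and 1 TATAAA on the opposite strand. The other listed window (chr1:138175077-138175376) overlaps it and held 1 AGGAAGT, on the opposite strand only, and no TGTGGT or TATAAA. Of 32851 RefSeq windows of the same length, 9.35% held AGGAAGT, 16.8% TGTGGT and 13.6% TATAAA on either strand, and 96.0% held GGAA, a core contained in AGGAAGT. The printed window was 33.7% G and C. A match is a run of letters and not a bound site.

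Ptprcap (ENSMUSG00000045826.9) lies on chr19:4153604-4156751, on the plus strand, in a crowded stretch. Its annotated span shares 432 bases with Coro1b, an actin regulator on the same strand, and 2761 bases with Rps6kb2, a ribosomal S6 kinase on the opposite strand. Reads from the stretch shared with Coro1b cannot be told apart by strand. Whether those shared with Rps6kb2 were told apart is not known, since the sources used here do not name the counting strand. Levels are given as CPM, the UMIs of a gene per 1000000 UMIs of the same cells. Coro1b was at 158 CPM in T cells of the CD45-KO library and 213 CPM in those of the LatY136F library. Rps6kb2 was at 30.4 and 30.0 CPM. The Ptprc span holds 1 other annotated locus, A130071D04Rik, which neither library lists.

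T cells of the CD45-KO library had less of either transcript than T cells of the LatY136F library, though Ptprc was still abundant. Ptprc had 33747 UMIs over T cells of the CD45-KO library, or 1182 CPM, against 61725 UMIs and 1759 CPM over those of the LatY136F library. The log2 ratio, CD45-KO over LatY136F, was -0.57 (interval -0.59 to -0.56). This is just short of a 1.5-fold difference, which it passed with cells weighted equally (-0.61), without the 2% of cells with the most UMIs (-0.61), with mixed cells counted as T cells (-0.59) and with the state mix held equal (-0.64). Ptprcap had 15893 UMIs and 556 CPM in the CD45-KO library and 34206 UMIs and 975 CPM in the LatY136F library, a log2 ratio of -0.81 (-0.84 to -0.78). Of 12730 genes with at least 20 UMIs, 9.03% were lower and 8.21% higher by at least 1.5-fold in the CD45-KO library, and Ptprcap was among the lower ones. Ranked by ratio among 3864 genes that reached 50 CPM in either library, Ptprc stood 143rd from the lowest and Ptprcap 61st. A transcript counted outside a deleted part says nothing about the protein, so the Ptprc level does not check the genotype label.

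Tfh-like cells had the highest Ptprc level of the states, and cycling cells the lowest, in either library. Tfh-like cells reached 2045 CPM (1952 to 2140) in the CD45-KO library and 2653 CPM (2529 to 2782) in the LatY136F library. Cycling cells were at 669 CPM (613 to 730) in the CD45-KO library and 1189 CPM (1155 to 1225) in the LatY136F library. Between these ends the states lay close together. In the CD45-KO library the order below the Tfh-like cells was other T (1186 CPM), naive-like (1123 CPM), interferon-high (1099 CPM), Gzmb-positive (1041 CPM) and cells in several states (987 CPM). The intervals of naive-like cells and the next 3 overlapped from neighbour to neighbour, and other T cells stood above the naive-like ones. In the LatY136F library the order was interferon-high (1910 CPM), other T (1854 CPM), naive-like (1813 CPM), Gzmb-positive (1795 CPM) and several states (1278 CPM). There the first 4 of these had overlapping intervals from neighbour to neighbour, and cells in several states lay below them. The interval of cells in several states (1229 to 1328) only just cleared that of cycling cells (1155 to 1225). With gates on cells thinned to 1000 UMIs each, the difference of the several-states group from other T cells was 0.011 on the log2 scale, in place of -0.54.

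**Figure D1:**
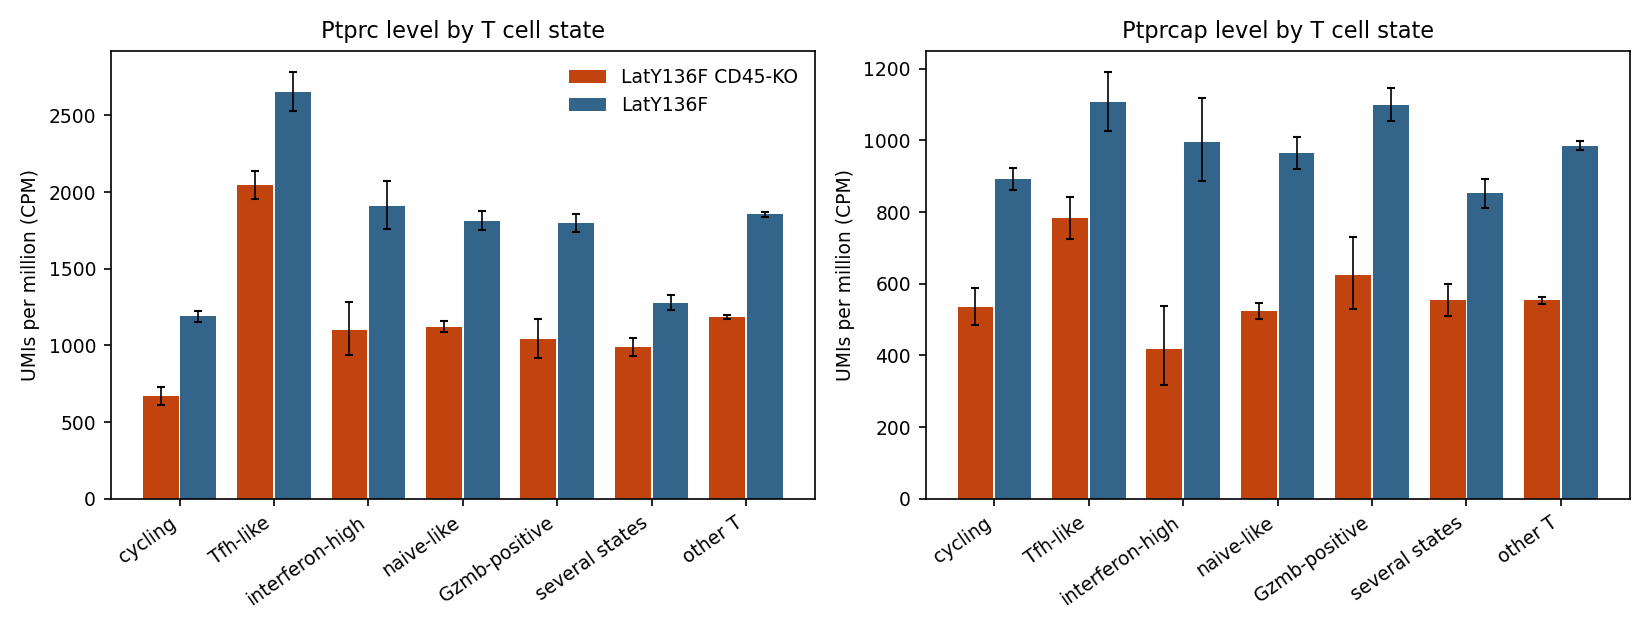
Level of Ptprc (left) and Ptprcap (right) in CPM for each T cell state, with CD45-KO bars left of LatY136F bars and exact 95% Poisson intervals. Ptprc is highest in Tfh-like cells (2045 and 2653 CPM) and lowest in cycling cells (669 and 1189 CPM), while Ptprcap varies less between states.

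Relative to other T cells of the same library, Tfh-like cells had more Ptprc by 0.79 on the log2 scale (0.72 to 0.85) in the CD45-KO library and by 0.52 (0.45 to 0.59) in the LatY136F library. Where Tfh-like cells that had also passed another gate were counted in, these differences were 0.59 and 0.12. NK cell genes summed to 138 CPM in Tfh-like cells of the CD45-KO library (6 of 8 genes with a UMI) and to 49.9 CPM in those of the LatY136F library (3 of 8), against 48.7 and 34.2 CPM in other T cells. Ncr1 was at 0 in Tfh-like cells of both, and the part of these transcripts in the Tfh-like levels was not tested. The cells that were Tfh-like and cycling at once lay between those that were Tfh-like alone and those that were cycling alone: 34 such cells had 1272 CPM (1150 to 1403) in the CD45-KO library, and 47 had 1427 CPM (1315 to 1546) in the LatY136F library. Cells that were cycling and naive-like were at 597 CPM (42 cells) and 949 CPM (85 cells). Cycling cells had a log2 difference from other T cells of -0.83 (-0.95 to -0.70) in the CD45-KO library and -0.64 (-0.68 to -0.60) in the LatY136F library.

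Cycling cells also held more RNA per cell. Median depth was 5499 UMIs in cycling cells of the CD45-KO library and 5471 in those of the LatY136F library, against 1902 and 2028 in other T cells. Counted per cell, Ptprc was more abundant in cycling cells, with 4.34 UMIs per cell in the CD45-KO library and 7.22 in the LatY136F library, against 2.41 and 4.07 in other T cells. The share of the transcriptome and the number of molecules per cell therefore ran in opposite directions in this state. NK cell genes summed to 78.4 CPM in cycling cells of the CD45-KO library (6 of 8 genes with a UMI) and to 9.55 CPM in those of the LatY136F library (4 of 8). In the CD45-KO library the genes with a UMI were Klrb1c, Klrd1, Klra8, Eomes, Tyrobp and Fcer1g. In the LatY136F library they were Klrk1, Eomes, Tyrobp and Fcer1g, and Ncr1 was at 0 in both. Genes of the myeloid list summed to 318 CPM in cycling cells of the CD45-KO library and 220 CPM in those of the LatY136F library. In other T cells they summed to 149 and 173 CPM. The part of NK cell and myeloid transcripts in the Ptprc levels was not tested.

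Ptprcap followed the states less. Tfh-like cells were at 783 CPM (726 to 843) in the CD45-KO library and 1106 CPM (1026 to 1191) in the LatY136F library. Gzmb-positive cells came next in both, with 624 CPM (530 to 729) in the CD45-KO library and 1099 CPM (1054 to 1147) in the LatY136F library. Naive-like cells were at 523 and 964 CPM, and cycling cells at 535 and 893 CPM. Interferon-high cells had the lowest level in the CD45-KO library (417 CPM, 319 to 537) but not in the LatY136F library (997 CPM, 887 to 1117). Cells in several states were at 554 and 852 CPM, and other T cells at 554 and 985 CPM. Every neighbour in the order overlapped the next by its interval in both libraries. Against other T cells, cycling cells differed in Ptprcap by -0.05 on the log2 scale (-0.20 to 0.09) in the CD45-KO library and by -0.14 (-0.19 to -0.09) in the LatY136F library.

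The balance of the genes differed between states. The share of Ptprc in the summed UMIs of both genes depends on how well each transcript is captured, so it can be compared only between groups of cells and not read as a ratio of molecules. It was 55.6% (52.3% to 58.8%) in cycling cells of the CD45-KO library and 57.1% (56.0% to 58.2%) in those of the LatY136F library. In Tfh-like cells it was 72.3% (70.5% to 74.1%) and 70.6% (68.7% to 72.4%). Other T cells lay between, at 68.2% (67.7% to 68.6%) and 65.3% (65.0% to 65.7%), and Gzmb-positive cells at 62.5% and 62.0%. The distance between cycling and Tfh-like cells was thus much wider than that between the libraries within either of these states. The libraries were further apart in interferon-high cells, at 72.5% (66.0% to 78.3%) and 65.7% (62.4% to 68.9%). Naive-like cells were at 68.2% and 65.3%, and all T cells at 68.0% and 64.3%.

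In all 7 groups of T cells the ratio of either gene, CD45-KO over LatY136F, had an interval below 0. For Ptprc the log2 ratio was -0.83 (-0.96 to -0.70) in cycling, -0.80 (-1.06 to -0.54) in interferon-high, -0.79 (-0.97 to -0.61) in Gzmb-positive and -0.69 (-0.76 to -0.63) in naive-like cells. Other T cells had -0.64 (-0.67 to -0.62). The smallest differences were those of Tfh-like cells, -0.38 (-0.47 to -0.28), and of cells in several states, -0.37 (-0.48 to -0.27), whose intervals did not reach those of the other 5 groups. With overlapping gates the Tfh-like ratio was -0.16, and with gates on thinned cells that of cells in several states was -0.75. The mix of gates in the several-states group differed: 34 of 152 CD45-KO cells and 47 of 273 LatY136F cells were Tfh-like and cycling, and 6 and 34 were cycling and Gzmb-positive. NK cell genes in that group summed to 162 CPM in the CD45-KO library (8 of 8 genes with a UMI) and to 29.6 CPM in the LatY136F library (2 of 8), and their part in its ratio was not tested.

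For Ptprcap the ratio was lowest in interferon-high cells, -1.26 (-1.68 to -0.85), which was -0.79 with overlapping gates and rested on 60 UMIs in the CD45-KO library and 297 in the LatY136F library. It was -0.88 (-0.97 to -0.79) in naive-like, -0.83 (-0.86 to -0.80) in other T and -0.82 (-1.06 to -0.58) in Gzmb-positive cells. Cycling cells had -0.74 (-0.89 to -0.59), cells in several states -0.62 (-0.76 to -0.49), and Tfh-like cells -0.50 (-0.65 to -0.35). Ptprc was lower by at least 1.5-fold in 5 of the 7 groups and Ptprcap in 6. Some of these calls changed with the gates: Ptprc in naive-like cells had -0.51 with overlapping gates, and in cells of several states Ptprc passed (-0.75) and Ptprcap did not (-0.35) with gates on thinned cells. In Tfh-like cells Ptprcap passed (-0.59) with gate minimums lower by 1, and in cells of several states it did not (-0.57) with at most 10% mitochondrial counts. Among all genes with at least 20 UMIs in a group, those lower by that much made up 9.87% in cycling, 8.31% in Tfh-like, 18.1% in interferon-high, 6.72% in naive-like, 16.9% in Gzmb-positive, 8.26% in several-states and 7.59% in other T cells. The lowest 5% of genes ended at -0.69 in naive-like cells, a limit that Ptprc only just reached and Ptprcap passed. Ptprcap also passed it in other T cells (-0.76) and interferon-high cells (-1.12). Ptprc reached the limit in no other group. Neither gene reached it in Tfh-like (-0.75), cycling (-0.89), Gzmb-positive (-1.32) or several-states cells (-0.76), nor over all T cells (-0.91).

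**Figure D2:**
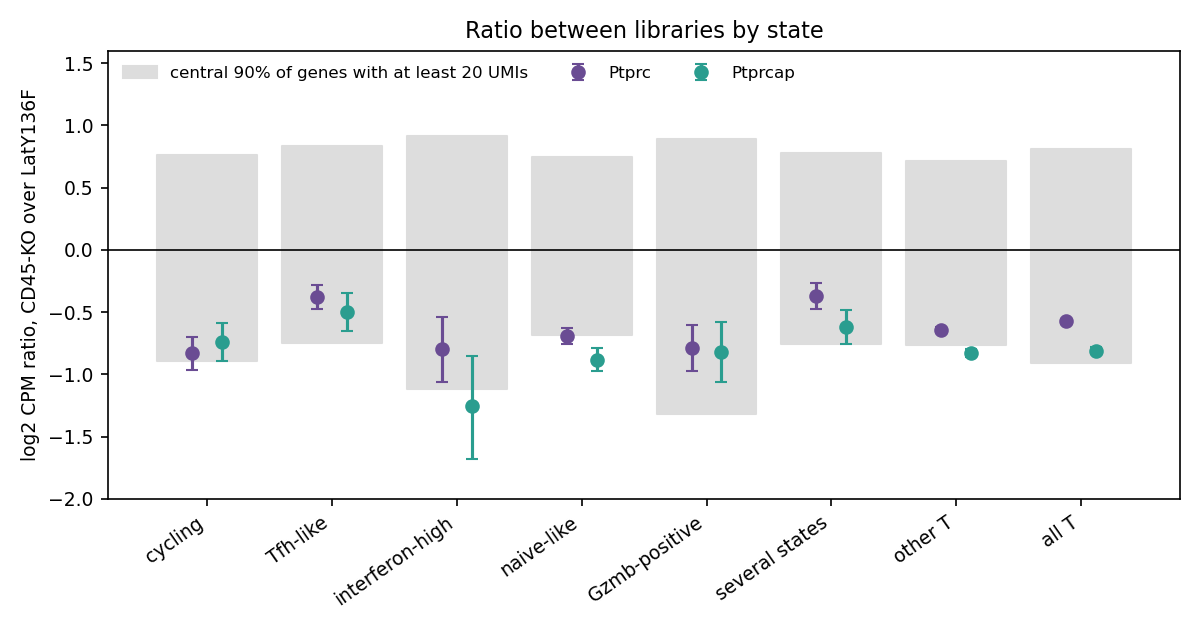
Log2 ratio of CPM, CD45-KO over LatY136F, for Ptprc and Ptprcap in each T cell group and over all T cells, with exact 95% intervals; grey bands span the central 90% of genes with at least 20 UMIs. All points lie below 0, from -1.26 for Ptprcap in interferon-high cells to -0.37 for Ptprc in cells of several states.

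Because cells with many UMIs pass a gate more easily, the levels were also followed over the number of markers in cells thinned to 1000 UMIs each, which left out 356 shallower T cells of the CD45-KO library and 432 of the LatY136F library. Along the Tfh genes Ptprc was higher at each step. In the CD45-KO library it was 1.16 UMIs per 1000 (1.14 to 1.18) in cells with none of them, 1.32 with 1, 1.67 with 2, 1.98 with 3 and 2.32 (2.03 to 2.64) with 4 or more. The LatY136F values were 1.79 (1.77 to 1.82), 1.89, 2.13, 2.59 and 3.0 (2.59 to 3.45). Ptprcap in the CD45-KO library was 0.53 UMIs per 1000 (0.52 to 0.54) in cells with none of these genes. It was 0.80 (0.64 to 1.00) with 3 and 0.74 (0.58 to 0.93) with 4 or more, both intervals lying above that with none. Its LatY136F value was 0.94 (0.92 to 0.96) with none and 1.07 (1.02 to 1.11) with 1, whose intervals stood apart. It was 1.00 (0.89 to 1.13) with 2, 0.99 (0.78 to 1.23) with 3 and 1.09 (0.85 to 1.38) with 4 or more. These intervals overlapped that with none. The groups at the upper end held 99 and 65 cells, and their median depth before thinning was 3154 and 3239 UMIs, against 1982 and 2144 for cells with none.

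Along the cycling genes Ptprc was lower from 3 genes on in the CD45-KO library and from 2 on in the LatY136F library. Ptprc in the CD45-KO library was between 1.20 and 1.25 UMIs per 1000 with 0, 1 or 2 cycling genes, 0.88 (0.65 to 1.16) with 3 or 4, and 0.93 (0.77 to 1.11) with 5 or more. In LatY136F cells it was 1.85 with none, 1.87 with 1, 1.62 (1.49 to 1.75) with 2, 1.19 (1.03 to 1.36) with 3 or 4, and 1.29 (1.19 to 1.39) with 5 or more. Ptprcap did not follow: with 5 or more cycling genes it was 0.52 in the CD45-KO library and 0.94 in the LatY136F library, against 0.55 and 0.95 with none, and these intervals overlapped. With 2 cycling genes it was 0.704 (0.565 to 0.867) in 125 cells of the CD45-KO library, above the interval with none (0.531 to 0.560). The LatY136F value with 2 was 0.91 (0.82 to 1.01). Cells with 5 or more had a median of 7080 UMIs in the CD45-KO library and 6443 in the LatY136F library before thinning. Naive genes, among them the chemokine receptor gene Ccr7, went with little difference in either gene. With 4 or more of them Ptprc was 1.09 in the CD45-KO library and 2.0 in the LatY136F library, against 1.24 and 1.78 with none. Ptprcap was 0.47 and 0.84, against 0.56 and 1.01 with none, and the intervals overlapped for both genes in both libraries. With 4 or more interferon-induced genes Ptprc was 1.45 (1.12 to 1.83) and 2.19 (1.85 to 2.58), against 1.21 and 1.83 with none. The intervals overlapped in both libraries, in the LatY136F library only by their edges. Along Gzmb, Ptprc in the CD45-KO library was 1.21 (1.19 to 1.23) without a UMI, 0.98 (0.82 to 1.16) with 1 and 1.35 with 2, the last in 20 cells and with an interval that holds the value without a UMI. The LatY136F values were 1.82 without a UMI, 1.88 with 1, 1.88 with 2 and 1.91 (1.69 to 2.15) with 3 or more.

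**Figure D3:**
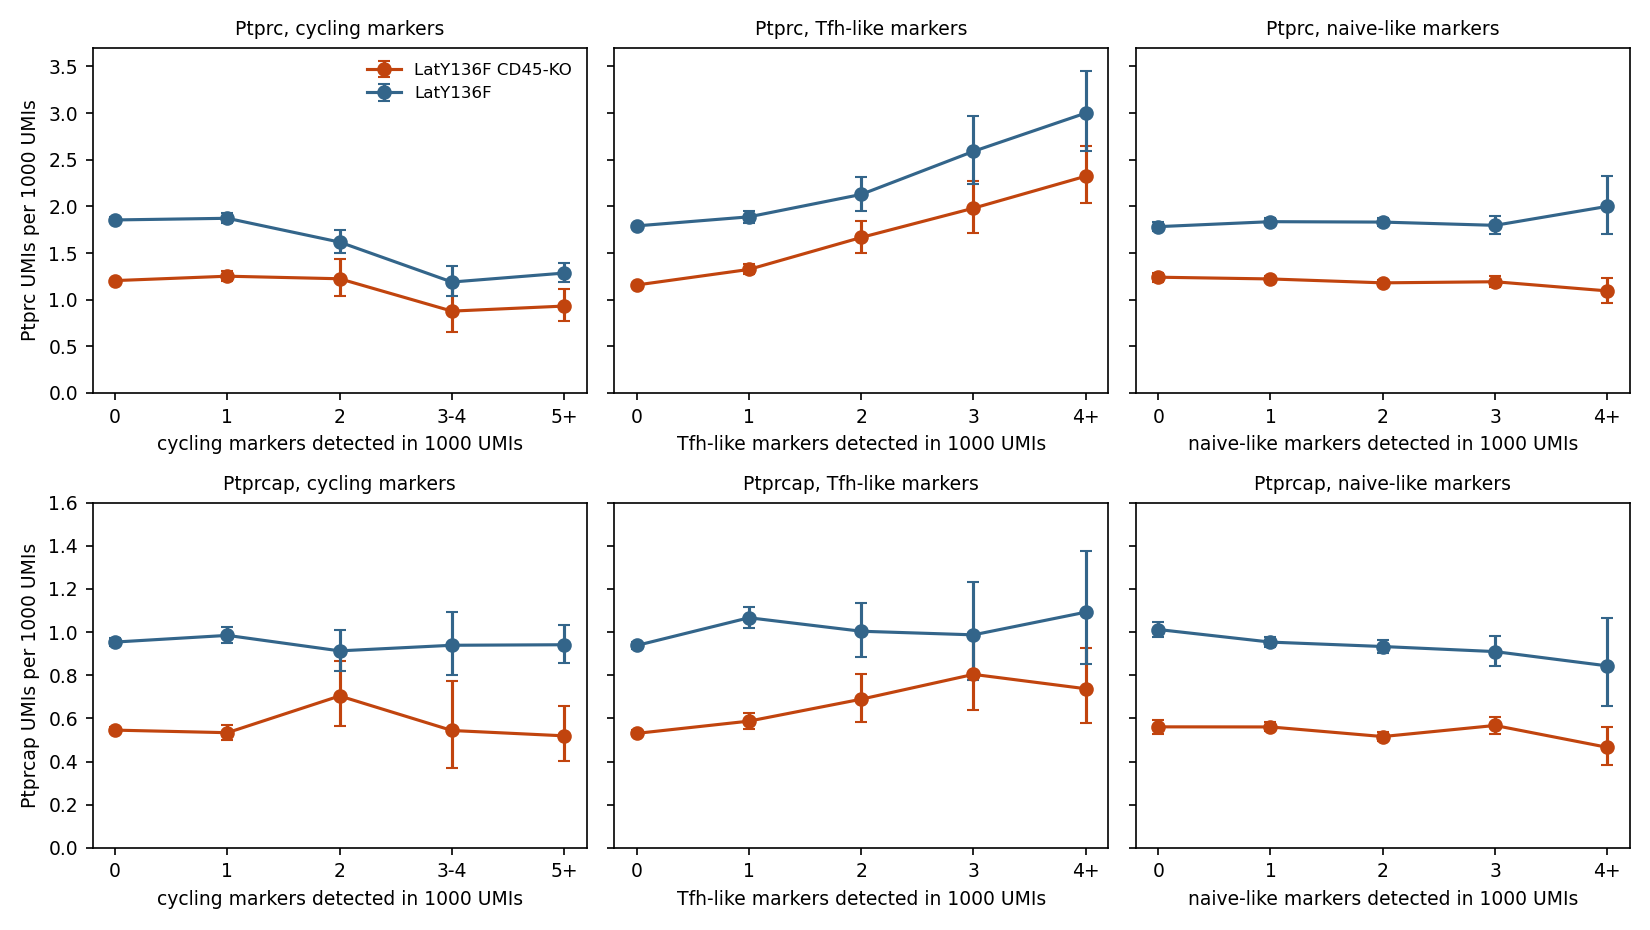
Mean UMIs of Ptprc (upper row) and Ptprcap (lower row) in T cells thinned to 1000 UMIs, by the number of cycling, Tfh-like or naive-like marker genes detected in the same 1000 UMIs, with exact 95% Poisson intervals. Ptprc is higher with more Tfh genes, up to 2.32 UMIs in CD45-KO and 3.0 in LatY136F cells, and lower in cells with 3 or more cycling genes, where Ptprcap is at 0.52 and 0.94 UMIs with 5 or more.

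Per cell, Ptprc was detected in most T cells of either library. Of T cells, 84.8% (84.2% to 85.4%) held a Ptprc UMI in the CD45-KO library and 95% (94.6% to 95.4%) in the LatY136F library, and a cell held a median of 2 and 4 UMIs. At 1000 UMIs per cell these shares were 65.9% (65.1% to 66.8%) and 81.2% (80.5% to 81.8%). Ptprcap was detected in 61.8% and 82.2% of T cells, and in 39.9% (39.0% to 40.8%) and 59.0% (58.1% to 59.8%) after thinning. Cells of the CD45-KO library thus lay at fewer UMIs throughout, and cells without a UMI were a little more frequent than a Poisson distribution gives in either library. In the CD45-KO library 34.1% of thinned cells had no Ptprc UMI, against 29.9% for a Poisson distribution of the same mean. The LatY136F shares were 18.8% and 16.2%.

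The spread between cells was a little wider than counting alone gives. The Fano factor, the variance over the mean, which is 1 for a Poisson distribution, was 1.26 for Ptprc in thinned T cells of the CD45-KO library and 1.18 in those of the LatY136F library. For Ptprcap it was 1.14 and 1.15. Within states, Ptprc varied most among CD45-KO cycling cells (1.57 against 1.21 in LatY136F cycling cells) and among Tfh-like cells (1.43 in CD45-KO and 1.61 in LatY136F cells). It was lowest among Gzmb-positive and interferon-high cells of the LatY136F library, 0.97 and 0.85. At the upper end, 0.65% of CD45-KO and 1.88% of LatY136F T cells held 6 or more Ptprc UMIs in 1000, against 0.15% and 1.09% for the Poisson distributions.

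**Figure D4:**
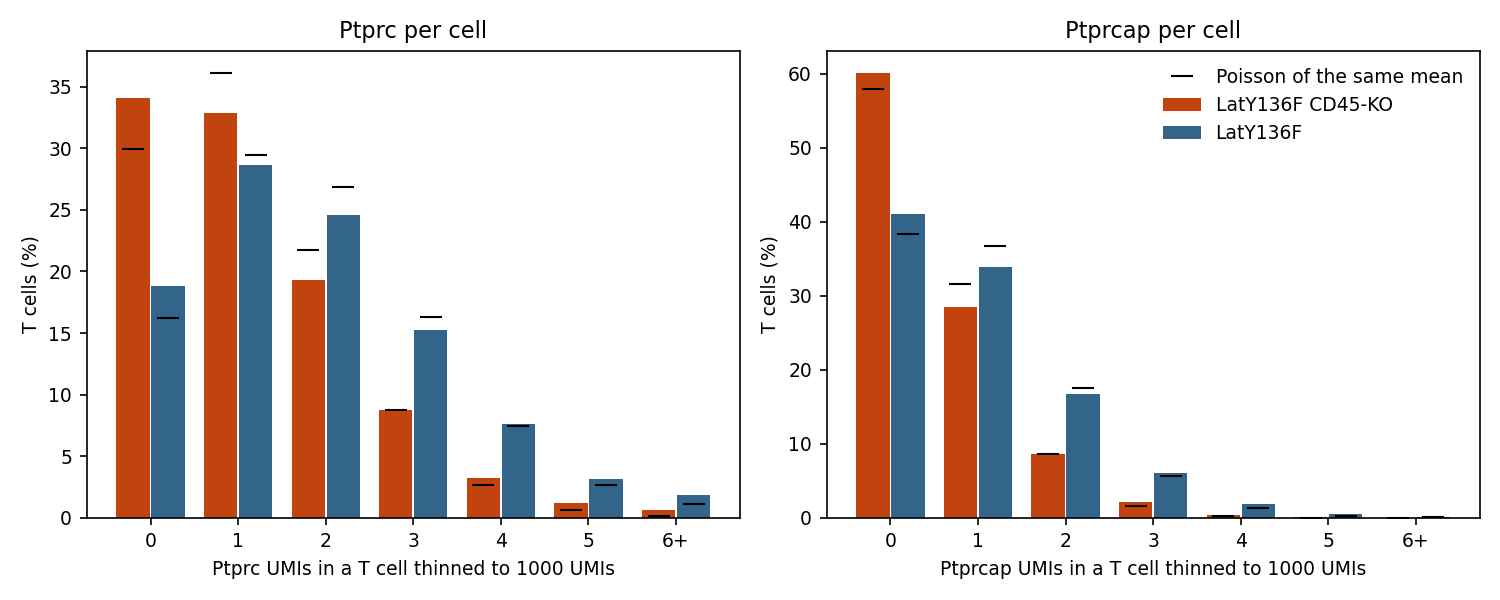
Share of T cells (%) by the number of Ptprc (left) or Ptprcap (right) UMIs after thinning each cell to 1000 UMIs, with CD45-KO bars left of LatY136F bars; black dashes show a Poisson distribution of the same mean. Cells with no Ptprc UMI make up 34.1% of CD45-KO and 18.8% of LatY136F T cells, each a little above the Poisson value.

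Within a library, Ptprc differed little with the number of Ptprcap UMIs in thinned T cells. In T cells thinned to 1000 UMIs, Pearson's r between the genes was 0.004 and Spearman's rho 0.002 over 12371 cells of the CD45-KO library, and 0.008 and 0.016 over 13280 cells of the LatY136F library. Mean Ptprc was 1.20 UMIs in CD45-KO cells without Ptprcap and 1.23 in those with 3 or more Ptprcap UMIs, and 1.79 and 1.86 in LatY136F cells. Both genes were detected together in 26.1% of CD45-KO T cells, against 26.3% from the product of their shares, and in 48.3% of LatY136F T cells, against 47.9%. The same raw counts before thinning gave r = 0.27 and r = 0.40, values that include the depth both genes of a cell share. Within states r ran from -0.20 (88 Gzmb-positive cells) to 0.08 (152 cells in several states) in the CD45-KO library. In the LatY136F library it ran from -0.08 (175 Tfh-like cells) to 0.13 (102 interferon-high cells). At these counts, about 1 UMI of each gene per cell, values of this size are no finding. Most of the spread between thinned T cells is counting error, with Fano factors from 1.14 to 1.26, and this makes any r small. A small r therefore does not show that the genes vary independently of each other.

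**Figure D5:**
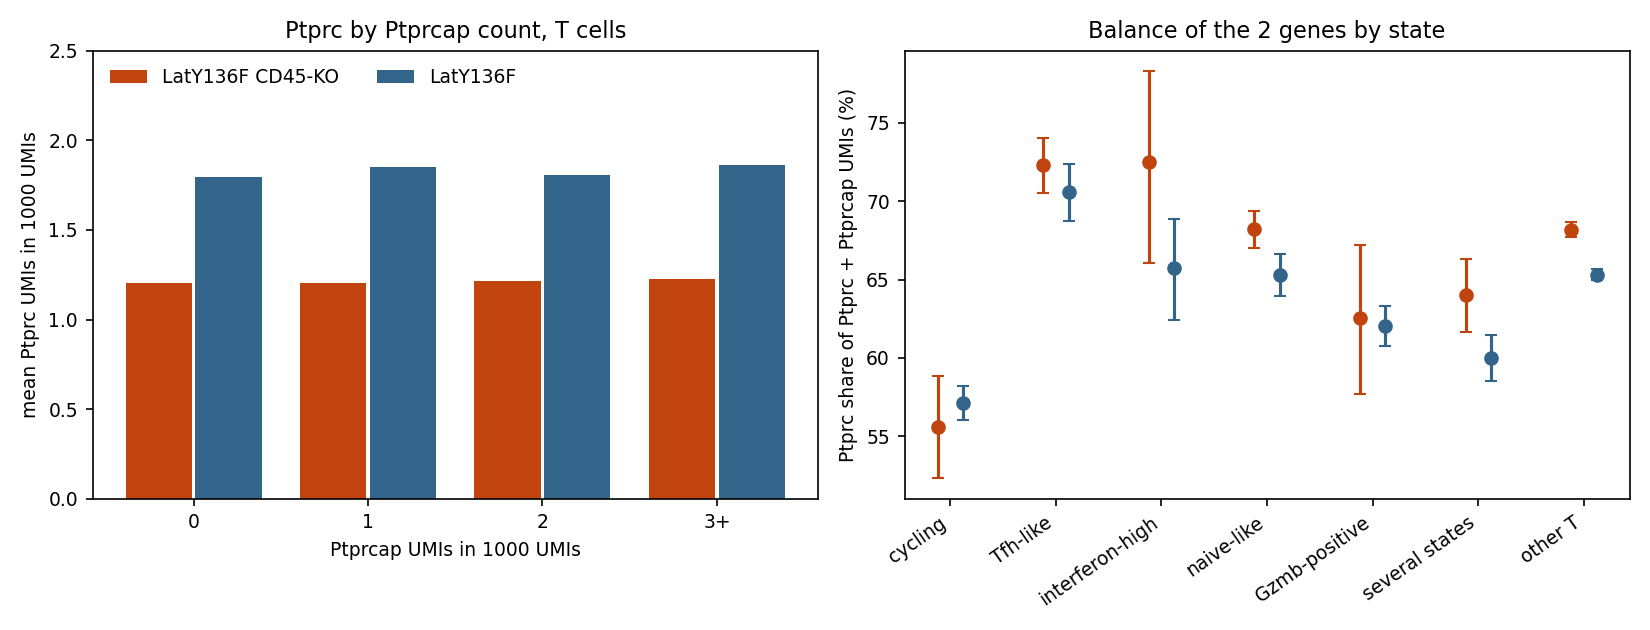
Left, mean Ptprc UMIs by the number of Ptprcap UMIs in T cells thinned to 1000 UMIs; right, the share of Ptprc (%) in the summed UMIs of both genes by state, with exact 95% binomial intervals. Mean Ptprc lies between 1.20 and 1.23 in CD45-KO and between 1.79 and 1.86 in LatY136F cells, while the share is lowest in cycling cells (55.6% and 57.1%).

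Few cells that were not T cells passed the sort, and they separated the genes. Of the CD45-KO cells 8 were B-like, 21 myeloid-like and 75 held markers of T and other cells together. In the LatY136F library these groups held 1, 3 and 30 cells. Myeloid-like cells of the CD45-KO library had 62 Ptprc UMIs, or 603 CPM (462 to 773), but 2 Ptprcap UMIs, or 19.4 CPM (2.36 to 70.2). Ptprcap, known mainly from lymphocytes, was thus near the floor there, below its level in every T cell state of the CD45-KO library. Myeloid-like cells were allowed at most 1 T cell marker, which leaves out cells with more free T cell RNA. Their level therefore cannot set a background from free RNA. The 3 myeloid-like cells of the LatY136F library, with 1 Ptprcap UMI (111 CPM, 2.80 to 617), are too few to give a level there. Of the 21 myeloid-like cells of the CD45-KO library, 9.52% (1.17% to 30.4%) held a Ptprcap UMI at a median depth of 5012 UMIs. In T cells of that library the share was 61.8% at a median of 1986. B-like cells of the CD45-KO library had 3 Ptprc and 11 Ptprcap UMIs. Cells with mixed markers had 456 CPM of Ptprc (402 to 515) in the CD45-KO library and 1328 CPM (1166 to 1506) in the LatY136F library, and 165 and 410 CPM of Ptprcap. No cell class that lacks Ptprc was available, so its background could not be measured either.

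Genes around CD45 were compared by lists. Of 19 partners and regulators of CD45 signalling, 1 was higher and 1 lower by 1.5-fold in T cells of the CD45-KO library, with a median log2 ratio of -0.10, where 17.2% of all genes passed that size in either direction and the median of all genes was 0.03. The lower one was Lgals3, encoding galectin 3, a lectin that binds glycans on CD45, with 165 CPM in the CD45-KO library and 349 CPM in the LatY136F library (-1.08, -1.13 to -1.03). The higher one, Cd22, a B cell lectin, was close to 0, with 1.23 and 0.51 CPM (1.26, 0.40 to 2.16). Among the other partners of at least 20 CPM, the galectin genes Lgals9 (-0.44) and Lgals1 (-0.39) differed most, followed by Csk (-0.36), the kinase that adds the phosphate CD45 removes, and Jak2 (0.25). The kinase genes on which CD45 acts stayed close to level, with Lck at 614 and 683 CPM (-0.15) and Fyn at 401 and 375 CPM (0.10).

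None of the 6 splicing factor genes, which include Hnrnpll, a regulator of the variable exons of CD45, differed by 1.5-fold, and 5 had a ratio below 0 (median -0.15). Ptbp1 had -0.34, Hnrnpl -0.25, Hnrnpa1 -0.24 and Sfpq 0.18, and Hnrnpll itself was at 159 CPM in the CD45-KO library and 165 CPM in the LatY136F library (-0.05, -0.11 to 0.004). Gene counts do not show which exons were used. Of 16 genes shared by most white blood cells none differed by 1.5-fold, and 14 had a ratio below 0 (median -0.11). Over all genes, 17.2% differed by that much and 46.8% had a ratio below 0. Coro1a, an actin regulator of leukocytes, came closest to the members with 1934 and 2791 CPM (-0.53, -0.54 to -0.51), followed by Cd48 (-0.43), Lcp1 (-0.37) and Cd44 (-0.28). Both Ptprc and Ptprcap lay below all 16.

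Around the targeted gene most neighbours differed by less than 1.5-fold. Of the 20 nearest measured genes around Ptprc, on chr1:135766119-143749676, 3 were lower and 1 higher by 1.5-fold in T cells of the CD45-KO library, with a median ratio of -0.19, where 9.03% of all genes were lower and 8.21% higher by that much and the median of all genes was 0.03. Kif14 (-1.28) and Aspm (-0.70), genes of cell division, and B3galt2 (-0.77) were lower, each at less than 20 CPM, and Camsap2 was higher (0.81). The nearest measured gene on each side was Gm19705 (2.38 CPM in the CD45-KO library and 1.6 CPM in the LatY136F library; 0.58, 0.05 to 1.11) and Atp6v1g3, which stood at 0.42 and 0.29 CPM. Nek7, the nearest abundant gene, was at 248 and 284 CPM (-0.19). Around Ptprcap, 2 of 20 were lower, Ssh3 (-1.20) and Gstp2 (-1.01), and 1, Gm49405, was higher (0.80) at less than 1 CPM, against the same shares of all genes. The median there was 0.02, and the nearest genes, Coro1b (-0.43) and Rps6kb2 (0.02), differed less than Ptprcap.

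Genes with the most similar pattern were ranked by Pearson's r of log2(CPM + 1) over the 14 points of 7 T cell groups in each library, among 3313 genes with at least 50 CPM in both libraries. These points share a library 7 at a time, and the value describes them alone. For Ptprc the top genes were Fkbp1a (0.93), Gatd1 (0.93), Cd3e (0.92), Eid1 (0.89) and Usf2 (0.88). Cd3e, a chain of the CD3 complex, kept its likeness within the libraries, with r = 0.94 over the 7 CD45-KO points and 0.97 over the 7 LatY136F points. Ptprcap ranked 54th for Ptprc (r = 0.79, with 0.59 and 0.86 within the libraries), and Ptprc ranked 30th for Ptprcap. The genes most like Ptprcap were Anxa11 (0.94), H13 (0.94), Lgals7 (0.92), Ucp2 (0.90) and Ubb (0.90). For Ubb the likeness came from the difference between libraries, since r was 0.53 and -0.29 within them.

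Over single thinned cells no gene came near these values. The genes with the highest mean r with Ptprc were Icos (0.07 in CD45-KO and 0.05 in LatY136F cells), Izumo1r (0.08 and 0.04), Eea1, Nrgn and Tnfsf8. Izumo1r, a marker of Tfh and regulatory cells, was part of the Tfh gate, along whose genes Ptprc was higher. Icos, a costimulatory receptor, was not part of that gate. For Ptprcap they were Actb (0.05 and 0.08), Cd52 (0.05 and 0.07), Actg1, Pfn1 and Lcp1, several of which encode actin or its regulators.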

How the data were processed

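Both deposited tables hold whole-number counts of molecules (UMIs) per cell and gene, which the authors made with the BD WTA Rhapsody pipeline version 1.9.1 on GRCm38 with GENCODE M19, per the file headers. The series' design text names version 2.0 and the submitters' processing notes name GRCm39; the headers were followed. Gene positions are from GENCODE M21, also on GRCm38. The sources used here do not name the aligner or the counting strand. Cells were kept if they held 200 genes or more and no more than 25% mitochondrial counts (11 CD45-KO and 28 LatY136F cells removed). Genes listed in 1 file were set to 0 in the other. No doublet caller was run. The libraries shared 223 cell indices.

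Counts were summed per state and library. Levels are CPM with exact Poisson intervals, ratios have exact conditional binomial intervals, and shares have Clopper-Pearson intervals. They cover counting error, not differences between mice. Thinning drew each cell down to 1000 UMIs without replacement. The interval and thinning code was tested on simulated data. Calculations used Python 3.11.15 with numpy 2.4.6 and scipy 1.17.1. Gates of T cells asked for 4 cycling, 4 Tfh, 5 interferon or 4 naive genes or 2 Gzmb UMIs; B-like and myeloid-like cells had at least 3 markers of their list and at most 1 T cell marker. Listed genes are named if they passed 1.5-fold, with up to 4 others of at least 20 CPM and the largest ratio; Lck, Fyn and Hnrnpll were added after their values were seen, as was Nek7. For likeness, the 5 highest genes are named, without receptor segments, mitochondrial and ribosomal genes. Members, lists and gates were chosen with earlier results of these data known.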

Additional observations from a re-analysis of the deposited data

How the results depend on the processing

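No paired analysis was possible because each genotype has 1 library. The ratio of Ptprc in T cells, -0.57, was -0.52 with at most 10% mitochondrial counts, -0.61 with cells weighted equally, -0.61 without the 2% of cells with the most UMIs and -0.64 with the state mix held equal. That of Ptprcap, -0.81, was -0.77 with at most 10% mitochondrial counts. In the 21 other of 26 recomputations these ratios stayed within their counting intervals. Among those, changed gate minimums and overlapping gates could not alter the ratios, since state gates do not decide which cells are T cells. Of 154 recomputed ratios by state 17 left their interval and none changed sign. Overlapping gates left other T cells and cells in several states as they were, so those recomputations could not differ either. The ratio of Ptprc in Tfh-like cells ran from -0.38 to -0.16, and in naive-like cells from -0.87 to -0.51. Among 168 recomputed differences from other T cells, 37 left their interval. Where the interval of the reported value lay apart from 0, 3 took the other sign, all in the LatY136F library: Ptprcap in Tfh-like cells was -0.016 with overlapping gates (0.17 otherwise), and with gates on thinned cells the several-states group was 0.011 for Ptprc (-0.54) and 0.023 for Ptprcap (-0.21). The cause was not tested. Where that interval held 0, 11 more took the other sign. The r between the genes was 0.053 in CD45-KO and 0.063 in LatY136F cells on unthinned log CPM, 0.27 and 0.40 on unthinned counts, an alternative chosen after seeing the data, and 0.014 and -0.012 at 500 UMIs. The alternatives for differences from other T cells, and leaving out shared cell indices, were also chosen after seeing the data. Counts of list members with a lower CPM changed by at most 1 under each alternative (13 in place of 14 white blood cell genes with median ratio scaling, which shifted ratios by 0.004). Interferon-high and Gzmb-positive CD45-KO cells, with 61 and 88 cells, limit the precision most.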

Other observations

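The genes with the lowest r with Ptprc over thinned single cells, named here after their values were seen, were Ptma (-0.04 in CD45-KO and -0.08 in LatY136F cells), Stmn1 (-0.02 and -0.07), Hmgb2 (-0.02 and -0.07), Pclaf and Tuba1b. Stmn1, Hmgb2, Pclaf and Tuba1b are known to be high in dividing cells, and Pclaf was part of the cycling gate. For Ptprcap the lowest were Il1rl1 (-0.05 and -0.07), the receptor gene for interleukin 33, and Il7r (-0.05 and -0.05), followed by Zfp36l2, Elf1 and Fbxo17. All of these values are small.

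With T cells of each library split by depth into 4 equal parts, Ptprcap was at 516, 522, 549 and 593 CPM from shallow to deep in the CD45-KO library and at 911, 929, 982 and 1009 CPM in the LatY136F library. Ptprc was lowest in the deepest part, with 1141 CPM (1122 to 1161) in the CD45-KO library and 1644 CPM (1624 to 1665) in the LatY136F library, against 1223 and 1822 CPM in the shallowest.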
